A study of Mus musculus with 7 samples.

Results

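The Toll-like receptors are pattern receptors that detect microbial products, and 7 of their genes (Tlr1 to Tlr7), with the co-receptor genes Cd14 and Ly96 and the adaptor gene Myd88, were examined in sorted follicular dendritic cells (FDCs). The 10 genes were taken by symbol, without reference to their values, from a table of 21176 genes, and all 10 were present with 1 row each. FDCs are the stroma of B-cell follicles and display antigen to B cells. They had been sorted from popliteal lymph nodes of unimmunised male mice aged 8 to 12 weeks, 4 samples from wild-type (WT) animals and 3 from animals without the neurotrophin receptor gene Ngfr (Ngfr KO). Each sample pooled nodes of several animals, so n counts pools. Neither the sort markers nor the deleted part of Ngfr is given in the labels.

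Toll-like receptors are membrane proteins with a leucine-rich ectodomain and a cytoplasmic TIR domain. Tlr4 senses lipopolysaccharide together with the small secreted protein MD-2, the product of Ly96, after the lipid has been handed over by Cd14. Tlr2 pairs with Tlr1 or Tlr6 to detect bacterial lipopeptides, Tlr5 detects flagellin, and Tlr3 and Tlr7 sit in endosomes and detect double-stranded and single-stranded RNA. All of these receptors except Tlr3 recruit the adaptor Myd88, which leads to NF-κB activation. FDCs are known to carry Tlr4, and its stimulation has been studied in germinal centre reactions.

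The mean was higher in Ngfr KO for 8 of the 10 genes and lower for 2, Tlr3 and Tlr7, and 3 were called higher by both tests used. Of all genes tested, 18.3% were called higher by limma and 8.67% by edgeR. Cd14 rose 4.65-fold, Tlr1 rose 4.01-fold and Myd88 rose 1.59-fold by the ratio of mean values. Tlr4 itself, its partner Ly96, Tlr2 and Tlr3 were not called, and Tlr5, Tlr6 and Tlr7 were close to the limit of detection. The values are read counts per gene scaled by 1 factor per sample with the trimmed mean of M values (TMM) method, and a value of 1 corresponded to 230 to 295 reads.

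The libraries held 17244925 to 21538400 reads, with all 3 Ngfr KO libraries deeper than the 4 WT ones. Ngfr itself had values of 0.377, 0.677, 1.30 and 1.14 in WT replicates 1 to 4 and 0.305, 0.353 and 0.184 in Ngfr KO replicates 1 to 3. The Ngfr KO values lay below all WT values but were not 0 (edgeR log2 change -1.55, adjusted p = 0.0574), and without knowing the deleted part this checks the labels only in part. All 8 listed FDC markers were present, with a summed value of 1720 to 4880 among WT samples and 7450 to 9950 among Ngfr KO samples. Of these, 7 were called higher by both limma and edgeR. The other, Cxcl13, had a higher mean in Ngfr KO and was not called. It makes up a large part of the sums, and its groups overlapped. Its values were 859.3 to 2904.7 among WT samples and 2351.6 to 5277.0 among Ngfr KO samples. Endothelial transcripts were also present, and all 9 listed genes fell in Ngfr KO, with sums of 109 to 152 among WT samples and 26.4 to 47.9 among Ngfr KO samples. Neutrophil markers stood at 30.1 and 79.0 in WT replicates 1 and 4 and at 0.236 to 0.958 in the other 5 samples. Because these are bulk samples, fewer cells of a type and less RNA per cell cannot be told apart. The part that these differences in cell markers have in the results below was not tested.

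**Figure D1:**
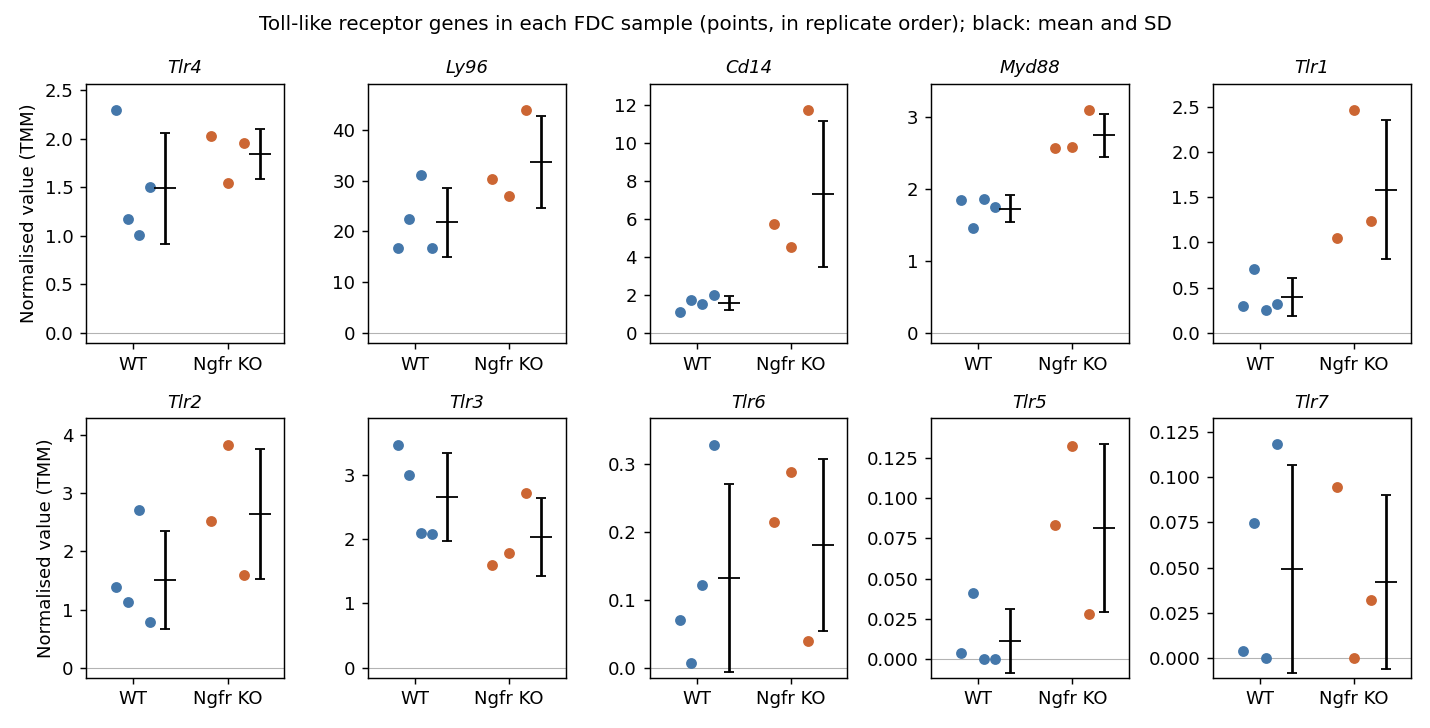
Normalised value (TMM) of each of the 10 genes in the 4 WT and 3 Ngfr KO samples. Points are samples in replicate order and black bars give the mean and SD. The WT and Ngfr KO points do not overlap in Cd14, Myd88 and Tlr1 and overlap in the other 7 genes.

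Genes were tested with limma on log2(value + 1) if 3 or more samples reached a value of 1, and called at an adjusted p-value under 0.05. Of the 10 genes 7 passed this filter, and Tlr1 passed only through its Ngfr KO values. Among the 7, 3 were called higher and 0 lower. Over all 8326 genes tested, 18.3% were called higher and 15.8% lower. At an unadjusted p-value under 0.05 there were 4 genes higher and 0 lower by limma, and likewise 4 and 0 by edgeR. The shares of all genes at this unadjusted threshold were not counted, and they cannot be lower than the shares called. These counts are therefore not read as a result about the 10 genes. The median log2 change of the 7 genes was 0.55, against 0.02 over all genes tested. A second test, edgeR's quasi-likelihood test on the reads recovered from the values, took in all 10 genes and called the same 3 higher. With edgeR, 8.67% of 16751 genes were called higher and 6.55% lower. Groups did not overlap, with Ngfr KO higher, in 3 of the 7 genes and in 22.6% of all genes tested with limma. The 3 were Cd14, Myd88 and Tlr1. For Tlr1, whose WT values were all under 1, passing the filter already fixed this separation, so it is no separate result.

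Of the lipopolysaccharide receptor genes, Cd14 differed most between the genotypes. Cd14 (ENSMUSG00000051439, chromosome 18, 36725067 to 36726798, minus strand) had values of 1.10, 1.71, 1.50 and 1.97 in WT replicates 1 to 4 and of 5.72, 4.50 and 11.7 in Ngfr KO replicates 1 to 3. Every Ngfr KO sample lay above every WT sample, and replicate 3 was the highest of the Ngfr KO samples. The means were 1.57 ± 0.37 (SD, n = 4) and 7.31 ± 3.85 (SD, n = 3). By limma this was a log2 change of 1.61 (SE 0.25, adjusted p = 9.83e-04), and by edgeR one of 2.26 (adjusted p = 0.00416). Without Ngfr KO replicate 3 Cd14 remained called (log2 change 1.25, limma adjusted p = 0.00252). With a pseudocount of 5 in place of 1 the log2 change was 0.86, still called.

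Cd14 is best known from monocytes and macrophages, so markers of those cells were set beside it. Of 15 listed macrophage and monocyte genes 14 were in the table, and their summed value was 26.0 to 89.3 among WT samples and 34.8 to 57.4 among Ngfr KO samples. Marco, a scavenger receptor gene, made up most of that sum in 6 of the 7 samples, with values of 20.8 to 81.8, but had a value of 1.42 in Ngfr KO replicate 3. Without Marco, a choice made after its values were seen, the sums were 5.21 to 11.8 in WT and 7.56, 11.7 and 34.1 in Ngfr KO replicates 2, 1 and 3. The sample with the highest Cd14 value thus also had the highest sum of these genes, carried by the lysozyme gene Lyz2 with a value of 28.1 there. Lyz2 was called higher in Ngfr KO by limma (adjusted p = 0.0336) and not by edgeR. The macrophage genes Adgre1, Itgam and C1qa had at most 28, 43 and 7 reads in any sample, and each had 0 reads in at least 1 Ngfr KO sample.

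Tlr4 (ENSMUSG00000039005, chromosome 4, 66827584 to 66930284, plus strand), the signalling chain of the lipopolysaccharide receptor, had values of 2.29, 1.17, 1.00 and 1.50 in WT and 2.03, 1.54 and 1.95 in Ngfr KO. The Ngfr KO values lay inside the WT range, and WT replicate 1 was the highest sample of all. The log2 change was 0.21 with a 95% interval of -0.18 to 0.61 (limma adjusted p = 0.378). This interval covers changes of either sign.

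Ly96 (ENSMUSG00000025779, chromosome 1, 16688051 to 16709611, plus strand) was the most abundant of the 10 genes. Its values were 16.7, 22.5, 31.1 and 16.8 in WT and 30.2, 26.9 and 43.8 in Ngfr KO. The groups overlapped because WT replicate 3 reached the Ngfr KO range. The log2 change was 0.62 with a 95% interval of 0.08 to 1.16 (limma adjusted p = 0.0703). Its position relative to the threshold depended on the processing. Ly96 was called without WT replicate 3 (adjusted p = 0.0218), with median ratio scaling (0.0483) and after each sample's trend with transcript length had been removed (0.0358).

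Levels of different genes were compared per kilobase of merged exon. Ly96 had 21.3 ± 6.7 per kilobase in WT (SD, n = 4) and lay above 99.0% of all genes. Cd14, Myd88, Tlr3, Tlr2, Tlr4 and Tlr1 followed with WT means of 0.908, 0.670, 0.511, 0.500, 0.268 and 0.118 per kilobase. Tlr6, Tlr7 and Tlr5 came last with 0.0354, 0.0121 and 0.00235. In WT only the step from Ly96 to Cd14 exceeded the spread over samples, and the ranges of all other neighbours in this order overlapped. In Ngfr KO the ranges of neighbours were also apart between Cd14 (4.22 ± 2.22) and Myd88 (1.07 ± 0.12), and between Tlr4 (0.331 ± 0.047) and Tlr6 (0.0485 ± 0.0342).

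The lipopolysaccharide receptor genes were also set against each other within each sample. Per kilobase, Cd14 stood at 1.54 to 4.80 times Tlr4 in WT samples and at 9.06 to 19.2 times in Ngfr KO samples. Ly96 stood at 39.6 to 169.0 times Tlr4 in WT and at 81.1 to 122.0 times in Ngfr KO, so that this ratio overlapped between the groups. The ratio of Cd14 largely repeats the Cd14 change beside a Tlr4 that was not called, and is no separate result. In bulk samples these transcripts need not come from the same cells.

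**Figure D2:**
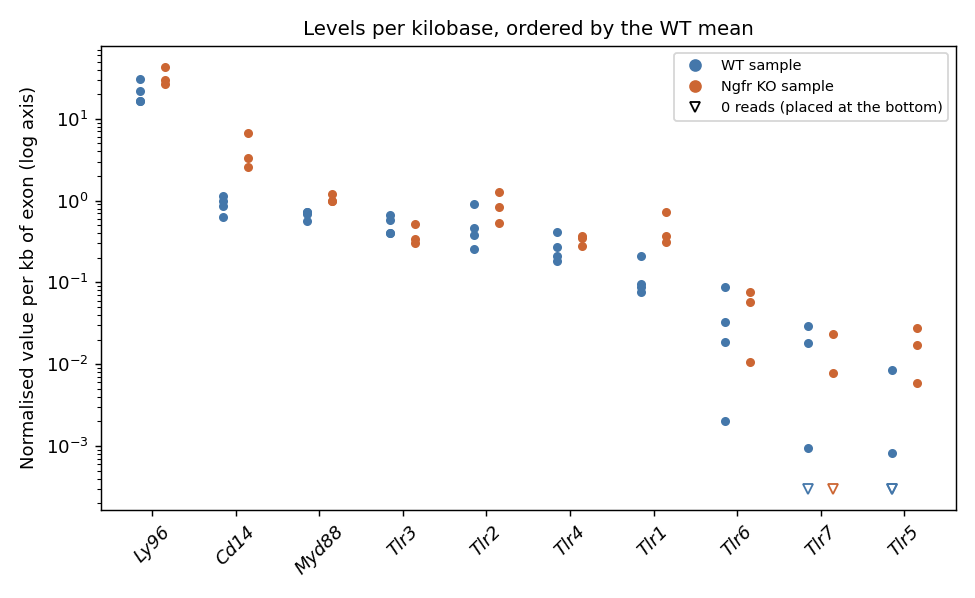
Normalised value per kilobase of merged exon, on a log axis, for each sample, with genes ordered by their WT mean. Ly96 lies above all other genes in both genotypes, and open triangles mark samples with 0 reads of Tlr7 or Tlr5.

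Tlr1 and Tlr6 are neighbouring, closely related genes on chromosome 5, and their reads may not be fully separable. Of the 50-base windows of the longest coding transcript of Tlr1, 15.3% also occur in Tlr6, and 12.5% of the windows of Tlr6 occur in Tlr1. The other 8 genes shared none of their windows with transcripts of other genes on the same strand. The longest identical stretch of 229 coding bases is shown because reads lying wholly inside it cannot be assigned to either gene. It lies on the minus strand of GRCm38 at chr5:64925537-64925765 in Tlr1 and chr5:64953828-64954056 in Tlr6, and is printed 5′ to 3′ in lower case.
Tlr1 and Tlr6: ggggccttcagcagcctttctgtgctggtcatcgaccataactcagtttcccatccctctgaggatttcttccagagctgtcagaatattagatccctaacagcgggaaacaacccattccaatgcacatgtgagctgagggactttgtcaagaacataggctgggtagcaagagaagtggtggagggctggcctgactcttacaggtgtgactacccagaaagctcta

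Tlr1 (ENSMUSG00000044827, chromosome 5, 64924679 to 64933563, minus strand), which forms lipopeptide receptors with Tlr2, had values of 0.296, 0.704, 0.256 and 0.324 in WT and 1.05, 2.46 and 1.24 in Ngfr KO. The lowest Ngfr KO sample lay above the highest WT sample, which was replicate 2. In reads these were 76, 188, 59 and 85 against 290, 725 and 309. By limma the log2 change came to 0.86 (SE 0.19, adjusted p = 0.00620). The pseudocount of 1 exceeded every WT value of Tlr1, and edgeR gave a log2 change of 2.09 (adjusted p = 0.0138). B cells also express Tlr1. The sum of 8 B-cell marker genes was 13.3 to 22.8 in WT and 24.1, 36.6 and 10.3 in Ngfr KO replicates 1 to 3, and Tlr1 was highest in replicate 2 as well. Of the 8, Ms4a1, which encodes CD20, was called higher by limma (log2 change 0.79, adjusted p = 0.0472) and none was called by edgeR. The sum was lowest in Ngfr KO replicate 3, where Tlr1 had a value of 1.24, and the part of B cells in the Tlr1 result was not tested.

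Tlr6 (ENSMUSG00000051498, chromosome 5, 64952031 to 64960097, minus strand) had 18, 2, 28 and 86 reads in WT and 59, 85 and 10 in Ngfr KO. The groups overlapped over nearly their whole range. The edgeR log2 change was 0.55 (adjusted p = 0.768). An exact permutation test of its values, two-sided, gave p = 0.629. When Tlr1 and Tlr6 were added, a shared read counted the same whichever gene it was given to. Shared reads dropped or counted for both would still affect the sum, and their handling is not given. The sums ran from 0.366 to 0.711 over the WT samples and from 1.27 to 2.75 over the Ngfr KO samples. They again did not overlap. Passing the filter had already fixed this separation for Tlr1, so no test is given for the sum. With the 35 ways to divide 7 samples, an exact permutation test cannot give p under 0.0286. In Ngfr KO the sum was mostly Tlr1, with a mean of 1.58 against 0.181 for Tlr6, so it largely repeats the Tlr1 values.

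Tlr2 (ENSMUSG00000027995, chromosome 3, 83836272 to 83841767, minus strand), the common partner of both, had values of 1.39, 1.13, 2.72 and 0.782 in WT and 2.52, 3.83 and 1.60 in Ngfr KO. WT replicate 3 lay above 2 of the 3 Ngfr KO samples. The log2 change was 0.55 with a 95% interval of -0.0048 to 1.11 (limma adjusted p = 0.110). Without WT replicate 3 Tlr2 was called (log2 change 0.76, limma adjusted p = 0.0261), and without Ngfr KO replicate 2 its log2 change was 0.33 (adjusted p = 0.399).

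**Figure D3:**
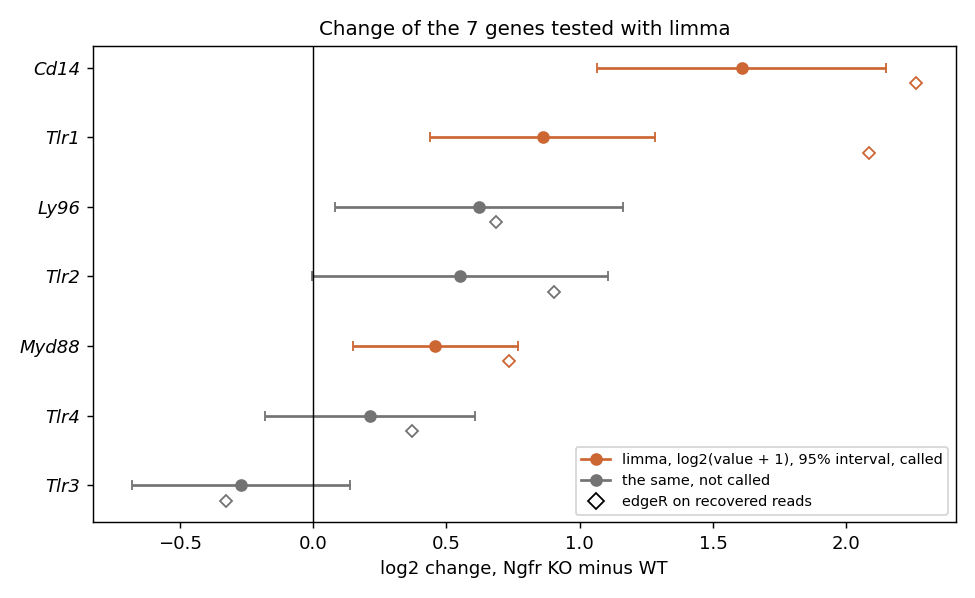
Change from WT to Ngfr KO on the log2 scale for the 7 genes tested with limma, as estimates on log2(value + 1) with 95% intervals (circles) and as edgeR estimates on recovered reads (diamonds). Orange marks genes called higher, and the largest change is that of Cd14 with 1.61 by limma and 2.26 by edgeR.

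Myd88 (ENSMUSG00000032508, chromosome 9, 119335934 to 119341411, minus strand), the adaptor used by most of these receptors, had values of 1.84, 1.45, 1.86 and 1.75 in WT and 2.57, 2.58 and 3.09 in Ngfr KO. The groups were narrow and did not overlap. By limma the log2 change came to 0.46 (SE 0.14, adjusted p = 0.0270), and by edgeR to 0.74 (adjusted p = 0.0310). The limma call was lost without WT replicate 2 (adjusted p = 0.0862) and without Ngfr KO replicate 1 (0.0645), 2 (0.0588) or 3 (0.0750), with log2 changes of 0.39 to 0.49. After removal of the trend with transcript length, an alternative chosen after seeing the data, the log2 change of Myd88 was 0.21 (adjusted p = 0.271).

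Exons of Myd88 overlap those of Acaa1a, a peroxisomal thiolase gene on the opposite strand, over 290 bases or 11.3% of the merged Myd88 exons. Whether the counting used strand is not given in the sources used here. Acaa1a ranged from 2.42 to 4.82 over the WT samples and from 3.94 to 5.86 over the Ngfr KO samples, and it was not called (limma adjusted p = 0.142). Tlr3 shares 7.32% of its merged exon bases with the antisense gene Gm45542, which had at most 3 reads in any sample.

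Of the RNA sensors only Tlr3 was present at a level that could be tested with limma. Tlr3 (ENSMUSG00000031639, chromosome 8, 45395665 to 45411080, minus strand) had values of 3.47, 3.00, 2.09 and 2.09 in WT and 1.59, 1.79 and 2.73 in Ngfr KO. It was the only one of the 7 tested genes with a lower mean in Ngfr KO. Replicate 3 of Ngfr KO lay inside the WT range, and the log2 change was -0.27 with a 95% interval of -0.68 to 0.14 (limma adjusted p = 0.278). Tlr7 (ENSMUSG00000044583, chromosome X, 167304929 to 167330558, minus strand) had 1, 20, 0 and 31 reads in WT and 26, 0 and 8 in Ngfr KO. Its edgeR log2 change was -0.18 (adjusted p = 0.957), with p = 0.914 in the exact permutation test. The Tlr7 reads overlapped between the groups, with 0 reads in 1 sample of each.

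Tlr5 (ENSMUSG00000079164, chromosome 1, 182954788 to 182976044, plus strand), the flagellin receptor, had the lowest WT level of the 10 genes, with 1, 11, 0 and 0 reads. Ngfr KO samples held 23, 39 and 7 reads, of which the last lay below WT replicate 2. The edgeR log2 change was 2.88 (adjusted p = 0.209), with p = 0.0571 in the exact permutation test of its values. A sample with 0 reads allows a value of up to 0.0114 to 0.0130 in the 2 WT samples concerned, counting error only.

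**Figure D4:**
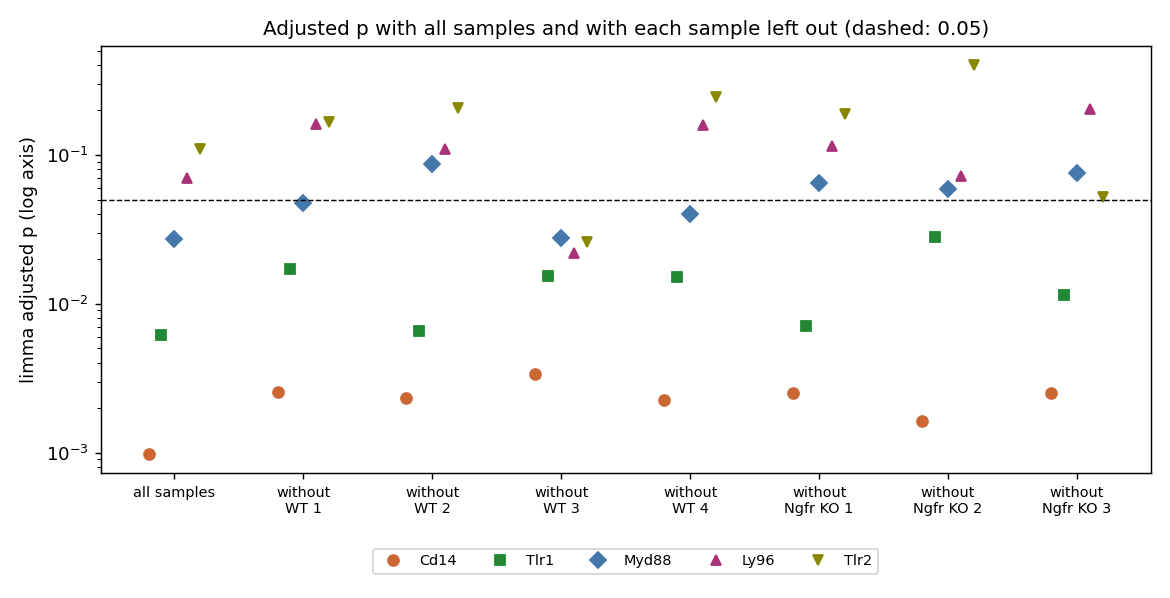
limma adjusted p-value, on a log axis, of 5 genes with all 7 samples and with each sample left out in turn. Cd14 and Tlr1 lie below the dashed line at 0.05 in all 7 fits that leave out 1 sample, Myd88 in 3 of them, and Ly96 and Tlr2 each in 1, the fit without WT replicate 3.

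The 250 bases before the RefSeq transcription start were examined (GRCm38.p6), with entries for 6 of the 10 genes. Shown are Myd88 and Tlr1, which were called higher, and beside them Tlr2 and Tlr3, which were not called and whose means differed in opposite directions. Both strands were searched for GGGNNNTTCC (a form of the NF-κB site), GAAANNGAAA (the core of the interferon-stimulated response element), TGANTCA (AP-1) and GAGGAAG (an ETS core). These are held by 4.65%, 2.98%, 6.75% and 10.6% of all 32851 such windows. Matches are printed in capitals, and sequences run 5′ to 3′ on the minus strand. They lie at chr9:119340019-119340268 for Myd88, chr5:64932700-64932949 and chr5:64933559-64933808 for 2 starts of Tlr1, chr3:83841609-83841858 for Tlr2 and chr8:45410381-45410630 for Tlr3.
Myd88: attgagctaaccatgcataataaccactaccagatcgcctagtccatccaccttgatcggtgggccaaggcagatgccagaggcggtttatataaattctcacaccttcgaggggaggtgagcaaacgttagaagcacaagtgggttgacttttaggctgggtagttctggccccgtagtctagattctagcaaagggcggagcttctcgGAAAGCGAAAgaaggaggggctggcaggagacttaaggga
Tlr1, first start: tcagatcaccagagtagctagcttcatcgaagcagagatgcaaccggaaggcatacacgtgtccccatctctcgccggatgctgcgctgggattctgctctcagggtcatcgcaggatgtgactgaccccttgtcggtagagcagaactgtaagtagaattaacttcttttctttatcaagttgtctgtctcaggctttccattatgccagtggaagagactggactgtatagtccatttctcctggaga
Tlr1, other start: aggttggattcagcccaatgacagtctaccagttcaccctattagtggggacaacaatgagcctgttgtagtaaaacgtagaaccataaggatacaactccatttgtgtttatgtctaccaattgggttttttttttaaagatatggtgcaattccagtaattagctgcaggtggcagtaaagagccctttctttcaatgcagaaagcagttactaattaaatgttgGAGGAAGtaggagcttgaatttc
Tlr2: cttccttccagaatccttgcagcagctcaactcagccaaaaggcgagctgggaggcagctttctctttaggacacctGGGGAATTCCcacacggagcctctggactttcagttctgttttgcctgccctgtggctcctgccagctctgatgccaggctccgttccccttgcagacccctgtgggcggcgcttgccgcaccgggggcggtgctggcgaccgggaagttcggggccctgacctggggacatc
Tlr3: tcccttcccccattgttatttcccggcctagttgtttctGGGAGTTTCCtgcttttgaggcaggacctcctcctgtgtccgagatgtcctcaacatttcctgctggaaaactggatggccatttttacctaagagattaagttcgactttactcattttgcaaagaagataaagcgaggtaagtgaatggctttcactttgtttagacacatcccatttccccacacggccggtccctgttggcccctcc

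Myd88, called higher, held the GAAANNGAAA letters 40 bases before its start and none of the other motifs. Tlr1, also called higher, held GAGGAAG 23 bases before one start and no match before the other. Tlr2 and Tlr3, whose means differed in opposite directions and which were not called, each held GGGNNNTTCC, at 173 and 211 bases before the start. Of the genes not printed, Tlr6 held GAAANNGAAA at 116 and 110 bases before one start and GGGNNNTTCC at 99 bases before the other, and Tlr5 held none of the 4 motifs. These matches describe letters in the window only.

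The genes whose log2(value + 1) ran most like that of the lipopolysaccharide receptor genes were looked up over all 7 samples. For Cd14 they were Tfrc (Pearson's r = 0.990), the transferrin receptor gene, Arpin (0.982) and Adprm (0.981). For Ly96 they were BC003331 (r = 0.992), Rmdn2 (0.987) and Selenok (0.984), and for Tlr4 they were Magt1 (0.923), Plekhb2 (0.906) and Mamld1 (0.901). With 7 samples that share genotype and depth differences, these values describe likeness only. Tfrc, Arpin and Adprm were also called higher in Ngfr KO, with log2 changes of 0.46, 0.42 and 0.54. That direction follows from the likeness to Cd14 by which they were picked and is no further result.

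The rest of the pathway was described from a list of 70 genes, of which 67 were in the table and 44 were tested with limma. Of these, 6 were called higher and 6 lower, with a median log2 change of -0.08. With edgeR 62 were tested, 6 were called higher and 1 lower, and 6 genes were called by both tests. By limma both shares lay below the 18.3% and 15.8% of all genes tested. By edgeR the share called higher was near the 8.67% of all genes, and the share called lower was below their 6.55%.

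Genes for folding and transport of the receptors included 2 of 6 called higher and 1 called lower. Unc93b1, which escorts endosomal Toll-like receptors out of the endoplasmic reticulum, ranged from 1.09 to 1.49 over the WT samples and from 2.01 to 5.17 over the Ngfr KO samples, with no overlap. It rose by 0.93 on the log2 scale (SE 0.21, limma adjusted p = 0.00651). Cnpy3, a chaperone for Toll-like receptors, rose from 2.45 ± 0.59 (SD, n = 4) to 4.84 ± 0.93 (SD, n = 3), or by 0.76 on the log2 scale (SE 0.18, limma adjusted p = 0.00765). The receptor chaperone Hsp90b1 ranged from 53.4 to 67.0 over the WT samples and from 79.2 to 97.5 over the Ngfr KO samples. It was not called by limma (log2 change 0.53, adjusted p = 0.0560) and was called higher by edgeR (log2 change 0.60, adjusted p = 0.0439). Rab11a, a recycling endosome GTPase, was called lower (log2 change -0.64, limma adjusted p = 0.0344), but not by edgeR (adjusted p = 0.0741).

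Among 19 kinases, ubiquitin ligases and transcription factors, 14 were tested with limma, 1 was called higher and 2 lower. Irf5, a transcription factor downstream of Myd88, had values of 0.483, 0.651, 0.739 and 0.713 in WT and 2.10, 3.43 and 2.49 in Ngfr KO. Like Tlr1 it passed the filter only through Ngfr KO, and it is also a B-cell and myeloid gene. It rose by 1.15 on the log2 scale with limma (SE 0.16, adjusted p = 5.83e-04) and by 2.12 with edgeR (adjusted p = 0.00330). Irak1, the kinase recruited by Myd88, fell from 4.54 ± 0.39 (SD, n = 4) to 2.77 ± 0.94 (SD, n = 3), a log2 change of -0.58 (limma adjusted p = 0.0262), which edgeR did not call (adjusted p = 0.0738). Peli1, a ubiquitin ligase of the pathway, had a log2 change of -0.55 (limma adjusted p = 0.0436), also not called by edgeR (adjusted p = 0.0810).

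Of the 3 further adaptors 1 was tested with limma and 0 were called, and of 11 inhibitors 8 were tested and 0 called. With limma at an unadjusted p-value under 0.05 there were 0 adaptors, and 1 inhibitor in each direction. edgeR called 0 genes of either kind and gave the same unadjusted counts.

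Inducible targets were mixed. Of 17 listed genes 11 were tested with limma, with 1 called higher and 2 lower. Nfkbia, which encodes the NF-κB inhibitor IκBα and is itself induced by NF-κB, ranged from 77.4 to 164.1 over the WT samples and from 186.1 to 270.6 over the Ngfr KO samples. It rose by 1.10 on the log2 scale (SE 0.29, limma adjusted p = 0.0144), and it was not called without Ngfr KO replicate 2 (adjusted p = 0.0543) or without a filter (0.0777). Socs3, a feedback inhibitor of cytokine signalling, and Zfp36, which promotes decay of cytokine mRNAs, had log2 changes of -0.84 and -0.93 (limma adjusted p = 0.0302 and 0.0468). Neither was called by edgeR (adjusted p = 0.0906 and 0.119), and in both the groups overlapped.

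**Figure D5:**
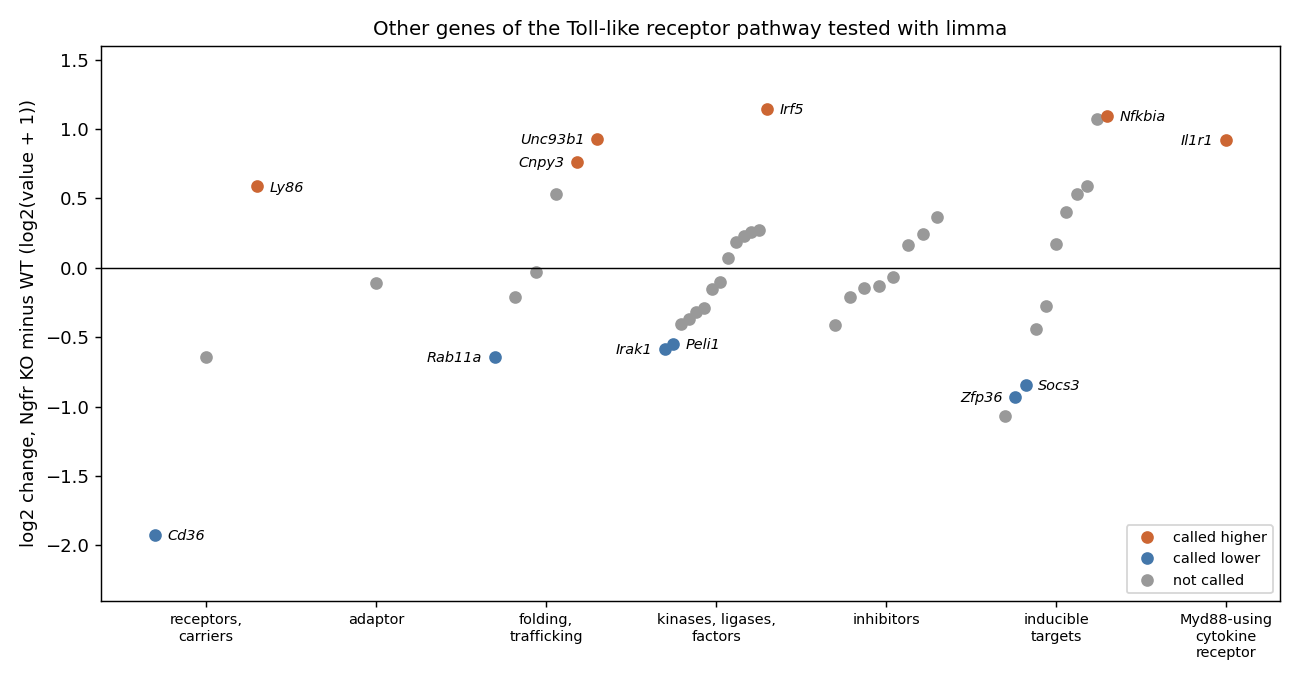
Change from WT to Ngfr KO on the log2(value + 1) scale for the 44 other pathway genes tested with limma, in columns by role. Orange points are the 6 genes called higher, blue points the 6 called lower, and the largest change is the fall of Cd36 by 1.93.

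Of the other receptors and ligand carriers, Cd36, a fatty acid transporter and Tlr2 co-receptor, fell from 27.2 ± 10.6 (SD, n = 4) to 6.53 ± 3.27 (SD, n = 3). On the log2 scale the change was -1.93 (SE 0.37, limma adjusted p = 0.00264), and edgeR called it as well (adjusted p = 0.0183). Capillary endothelium expresses Cd36, and the 9 endothelial markers fell in the same samples. Ly86, the MD-2 related partner of the B-cell receptor Cd180, had a log2 change of 0.59 (limma adjusted p = 0.0420). Its groups overlapped, and edgeR did not call it (adjusted p = 0.118).

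The interleukin-1 receptor gene Il1r1, whose product signals through Myd88, was the only one of 5 such cytokine receptor genes tested with limma. It had values of 1.96, 3.06, 1.75 and 3.31 in WT and 5.62, 5.26 and 5.82 in Ngfr KO, with no overlap. It rose by 0.92 on the log2 scale (SE 0.18, limma adjusted p = 0.00327), and it was called in all 7 fits that left out 1 sample.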

How the data were processed

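RNA from sorted FDCs was amplified with SMART-Seq v4 and made into Nextera XT libraries, per the labels' protocols. The deposited table gives a normalised signal for each gene in each sample, TMM values by its name. The submitters' processing notes name mm10 and bcl2fastq 2.20.0.422; aligner, counter and annotation are not given in the sources used here. In each sample 100% of the values were whole multiples (within 0.05 reads) of 1 step, which gave the reads. Gene length is not divided out. Genes with fewer than 3 reads in all are not in the table, and amplified reads are not independent molecules.

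Groups and replicate numbers came from the sample titles; nothing says that the pools came from separate animals, so p-values measure only the spread between these samples. The main test was limma 3.58.1 in R 4.3.3 (lmFit, eBayes with trend) on log2(value + 1), for genes reaching a value of 1 in 3 or more samples, with Benjamini-Hochberg adjustment over all 8326 genes and calls under 0.05. Low values are understated on this scale. edgeR 4.0.16 (quasi-likelihood test, filterByExpr, its own TMM factors) was run on the recovered reads of 16751 genes. Other alternatives were pseudocounts of 0.1 and 5, no filter, stricter and lower filters, median ratio scaling, a replicate block and leaving out each sample with the gene set kept. Removal of the length trend was added after seeing the data. Fits were tested on simulated data. Exon lengths and coordinates came from GENCODE M21 (GRCm38), in which 21137 identifiers matched, and promoters from RefSeq (GRCm38.p6).

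Named are all 10 genes, every pathway gene called by limma, defining cell markers, and for Tlr4, Ly96 and Cd14 the 3 most correlated genes each. Genes outside that rule (Ngfr, Acaa1a, Gm45542, Hsp90b1) were chosen after their values were seen. The members and lists were chosen with earlier results of these data known.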

Additional observations from a re-analysis of the deposited data

Results flagged for a closer look

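In 22 named genes the 4 WT samples were checked for 1 sample far from the rest, where the gap to its nearest neighbour divided by the group's range exceeds Dixon's 95% critical value. This was met in 2 genes, both with WT replicate 2 as the highest sample, and chance gives about 1.1. In Tlr1 the gap took 0.849 of the range (value 0.704), and in Tlr5 it took 0.905 of the range (value 0.0412, 11 reads).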

How the results depend on the processing

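Cd14, Tlr1, Cd36, Irf5, Unc93b1, Cnpy3 and Il1r1 kept their direction and call under every alternative that tested them. Cd14 and Tlr1 did so in 16 alternatives each, with log2 changes of 0.86 to 2.30 and 0.28 to 2.11. Myd88 kept its direction in all 16 and lost its call in 5. Of the other called pathway genes, calls were lost for Ly86 in 12 of 16 alternatives, Peli1 in 11 of 16, Zfp36 in 11 of 17, Rab11a in 8 of 17, Socs3 in 7 of 16, Irak1 in 6 of 16 and Nfkbia in 2 of 17, all with the direction kept. Ly96 gained a call in 3 of 17 and Tlr2 in 1 of 16. Among genes not called, leaving out 1 sample moved the log2 change by over 1.5 times in Tlr2, Tlr3, Tlr4, Tlr5 and Tlr6. It ran from 0.325 to 0.773 in Tlr2, -0.43 to -0.17 in Tlr3, 0.12 to 0.36 in Tlr4 and 0.0055 to 1.50 in Tlr6. In Tlr5 it was 5.57 without WT replicate 2. Tlr7 changed sign: its edgeR log2 change was 2.17 with the replicate block and -1.61 to 0.73 across the fits that left out 1 sample; the cause was not tested.

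A filter that asked 3 or more samples to reach a value of 10 left 1297 genes, of which 535 were called. It left 1 of the 10 genes, Ly96, so that limma called 0 of them (1 at an unadjusted p-value under 0.05, while edgeR without that filter called 3), and 4 of 11 pathway genes. Pathway calls numbered 5 with no filter, 7 with edgeR and 6 with edgeR and no filter, against 12; the cause was not tested. Leaving out 1 sample gave 1727 to 3051 genes, 2 to 5 of the 10 genes and 6 to 13 pathway genes. The lowest total came without Ngfr KO replicate 2, the highest number of the 10 genes without WT replicate 3, and pathway calls were 6 without WT replicate 1 and 7 without Ngfr KO replicate 1 or 2.

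With replicate number as a block, 2717 genes, 3 of the 10 genes and 15 pathway genes were called. WT replicate 4 has no Ngfr KO sample of its number, so the block gives it no weight in the limma change. The limma log2 changes of Cd14 (1.68) and Tlr1 (0.839) were the same with the block as without WT replicate 4. These alternatives are therefore not independent of each other. Deviations of samples with the same number correlated at 0.298, -0.0593 and -0.0108 for numbers 1, 2 and 3. The first was the highest among all pairs of a WT and a Ngfr KO sample. Samples of numbers 2 and 3 did not correlate best with their own number. So few pairs cannot show whether samples with the same number shared a batch. Tlr5, Tlr6 and Tlr7 had at most 39, 86 and 31 reads in any sample, and the part of depth in their results was not tested.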
